A study of Mus musculus with 12 samples.

Results

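The 10 regions described here are runs of closely spaced H2AK119ub peaks that extend over 10 kb or more of the mouse genome. They were found by pooling the peak intervals of 4 H2AK119ub libraries on chromosomes 1 to 19, X and Y, joining intervals separated by 3 kb or less into chains, and keeping chains with a span of at least 10 kb. Of 56814 chains, 10 (0.0176%) met this rule, and they held 149 peaks over 111927 bases. The median chain spanned 357 bases, and 55.5% of chains were a single peak. These regions were selected on the measured peak positions of these 4 libraries, so their spans and pooled peak numbers are given as a description. Each region is called below by the coding gene whose transcription start site (TSS) or body it holds: Dlx3, Lhx9, Otp, Mid1, Rhbg, Hoxb5/Hoxb6, Sp9, Zic2, Osr2 and Utf1.

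All libraries came from c-Kit+ hematopoietic stem and progenitor cells purified from mouse bone marrow, prestimulated overnight and then infected with 2 retroviruses. Every library carried added BAP1, the vector controls included, and the second virus supplied a truncated ASXL1 or nothing. The 4 libraries that defined the chains were made by CUT&RUN, which releases antibody-bound chromatin with a tethered nuclease, from cells with ASXL1 (1-590) 25RA, described in the labels as condensation-defective, with ASXL1 (1-590) 10RA, described as condensation-impaired, with ASXL1 (1-590) itself, or with empty vector. They are called 25RA, 10RA, 1-590 and vector. The peak names inside the 25RA list carry another mutant code than its title, and the title was followed, so every 25RA value below rests on that label. The other 8 libraries, which played no part in choosing the chains, were 4 H2AK119ub CUT&RUN libraries of a second set, with the charge-neutralized forms ASXL1 (1-1067) 36EQ and 34DN, ASXL1 (1-1067) or empty vector, and 4 ChIP-seq libraries of BAP1 or ASXL1 with 10RA or 1-590. For the ChIP-seq, the sample descriptions name antibodies against BAP1 or ASXL1 and the protocol names an HA antibody. Each condition has 1 library, so no difference between conditions has a replicate check, and none was tested. Expression from a retrovirus is not under the control of the cell's own Bap1 or Asxl1 gene, and strain, sex and age are not given in the sources used here. Peak lists hold no expression values, so the labelled cell type could not be checked against marker genes.

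H2AK119ub is histone H2A carrying a single ubiquitin on a lysine near its C-terminus. The RING1A and RING1B ligases of Polycomb repressive complex 1 add it, and BAP1, which needs the DEUBAD domain of an ASXL protein for activity, removes it. The mark is known to be dense over CpG-rich promoters of developmental regulators that are silent in a given tissue, often over several kilobases around the whole gene, and Hox clusters and homeobox genes are textbook examples. C-terminal truncations of ASXL1 recur in myeloid malignancies, and truncated forms are known to increase the activity of BAP1 on this mark.

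The lists held 33863, 28228, 32495 and 20124 peaks in 25RA, 10RA, 1-590 and vector. Between 86.0 and 96.0% of them had a q-value of 0.05 or less. The whole number of fragments at each summit and the local background around it were recovered for every peak from the authors' fold and p-value, to within 0.002 of the deposited −log10 p. The lowest local background in a list, taken as its genome background, was 1.86, 1.72, 2.06 and 0.908 fragments per base in 25RA, 10RA, 1-590 and vector, so the vector library was the shallowest by a wide margin. Local background is given below as a multiple of this genome background: it is the expected density that the peak caller set for the place of a peak, and not the peak itself. Whether it was taken from the H2AK119ub library or from a control library is not given in the sources used here, so ratios of it between libraries cannot be read as ratios of the mark. The window width is not given either, so no counting error can be attached to it.

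The sequence of 5 of the regions is shown because the CpG content of the sites is what the mark is known to follow. For Dlx3, Otp, Hoxb5/Hoxb6 and Sp9 the summit of the strongest peak at a site shared by all 4 libraries is printed with 100 bases to either side, and the Mid1 site, shared by 3 libraries, was added after its values were seen. Sequences are the plus strand of GRCm39, 5′ to 3′, and every CpG is in capitals.
Dlx3, chr11:95007996-95008196: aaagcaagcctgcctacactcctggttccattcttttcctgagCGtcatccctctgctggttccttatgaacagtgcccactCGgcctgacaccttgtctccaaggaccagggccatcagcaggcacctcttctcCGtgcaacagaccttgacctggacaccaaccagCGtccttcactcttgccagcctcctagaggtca
Otp, chr13:95010240-95010440: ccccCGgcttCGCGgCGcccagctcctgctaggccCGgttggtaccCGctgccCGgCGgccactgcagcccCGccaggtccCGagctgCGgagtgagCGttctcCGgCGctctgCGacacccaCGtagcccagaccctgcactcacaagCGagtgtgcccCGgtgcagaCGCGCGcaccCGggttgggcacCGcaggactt
Hoxb5/Hoxb6, chr11:96190012-96190212: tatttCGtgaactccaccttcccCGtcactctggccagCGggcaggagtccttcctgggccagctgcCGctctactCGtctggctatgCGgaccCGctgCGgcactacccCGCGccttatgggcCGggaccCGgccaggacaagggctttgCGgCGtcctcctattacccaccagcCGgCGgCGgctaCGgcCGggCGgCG
Sp9, chr2:73111011-73111211: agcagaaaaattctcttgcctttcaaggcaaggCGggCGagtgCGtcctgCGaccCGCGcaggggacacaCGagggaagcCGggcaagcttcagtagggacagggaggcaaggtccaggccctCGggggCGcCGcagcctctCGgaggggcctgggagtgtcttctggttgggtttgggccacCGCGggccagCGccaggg
Mid1, chrX:168770691-168770891: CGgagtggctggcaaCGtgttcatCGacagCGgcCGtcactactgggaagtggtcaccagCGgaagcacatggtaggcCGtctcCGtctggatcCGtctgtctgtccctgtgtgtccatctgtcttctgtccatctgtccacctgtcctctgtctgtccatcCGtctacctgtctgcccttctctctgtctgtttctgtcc
The Otp and Hoxb5/Hoxb6 windows hold 23 and 21 CpG dinucleotides, Sp9 holds 15 and Mid1 holds 10. The Dlx3 window, which lies upstream of the gene and in no annotated transcript, holds only 4. The Hoxb5/Hoxb6 window lies in a coding exon of Hoxb6, the Sp9 window in an Sp9 intron and the Otp window between genes. The Mid1 window meets a coding exon of Mid1.

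**Figure D1:**
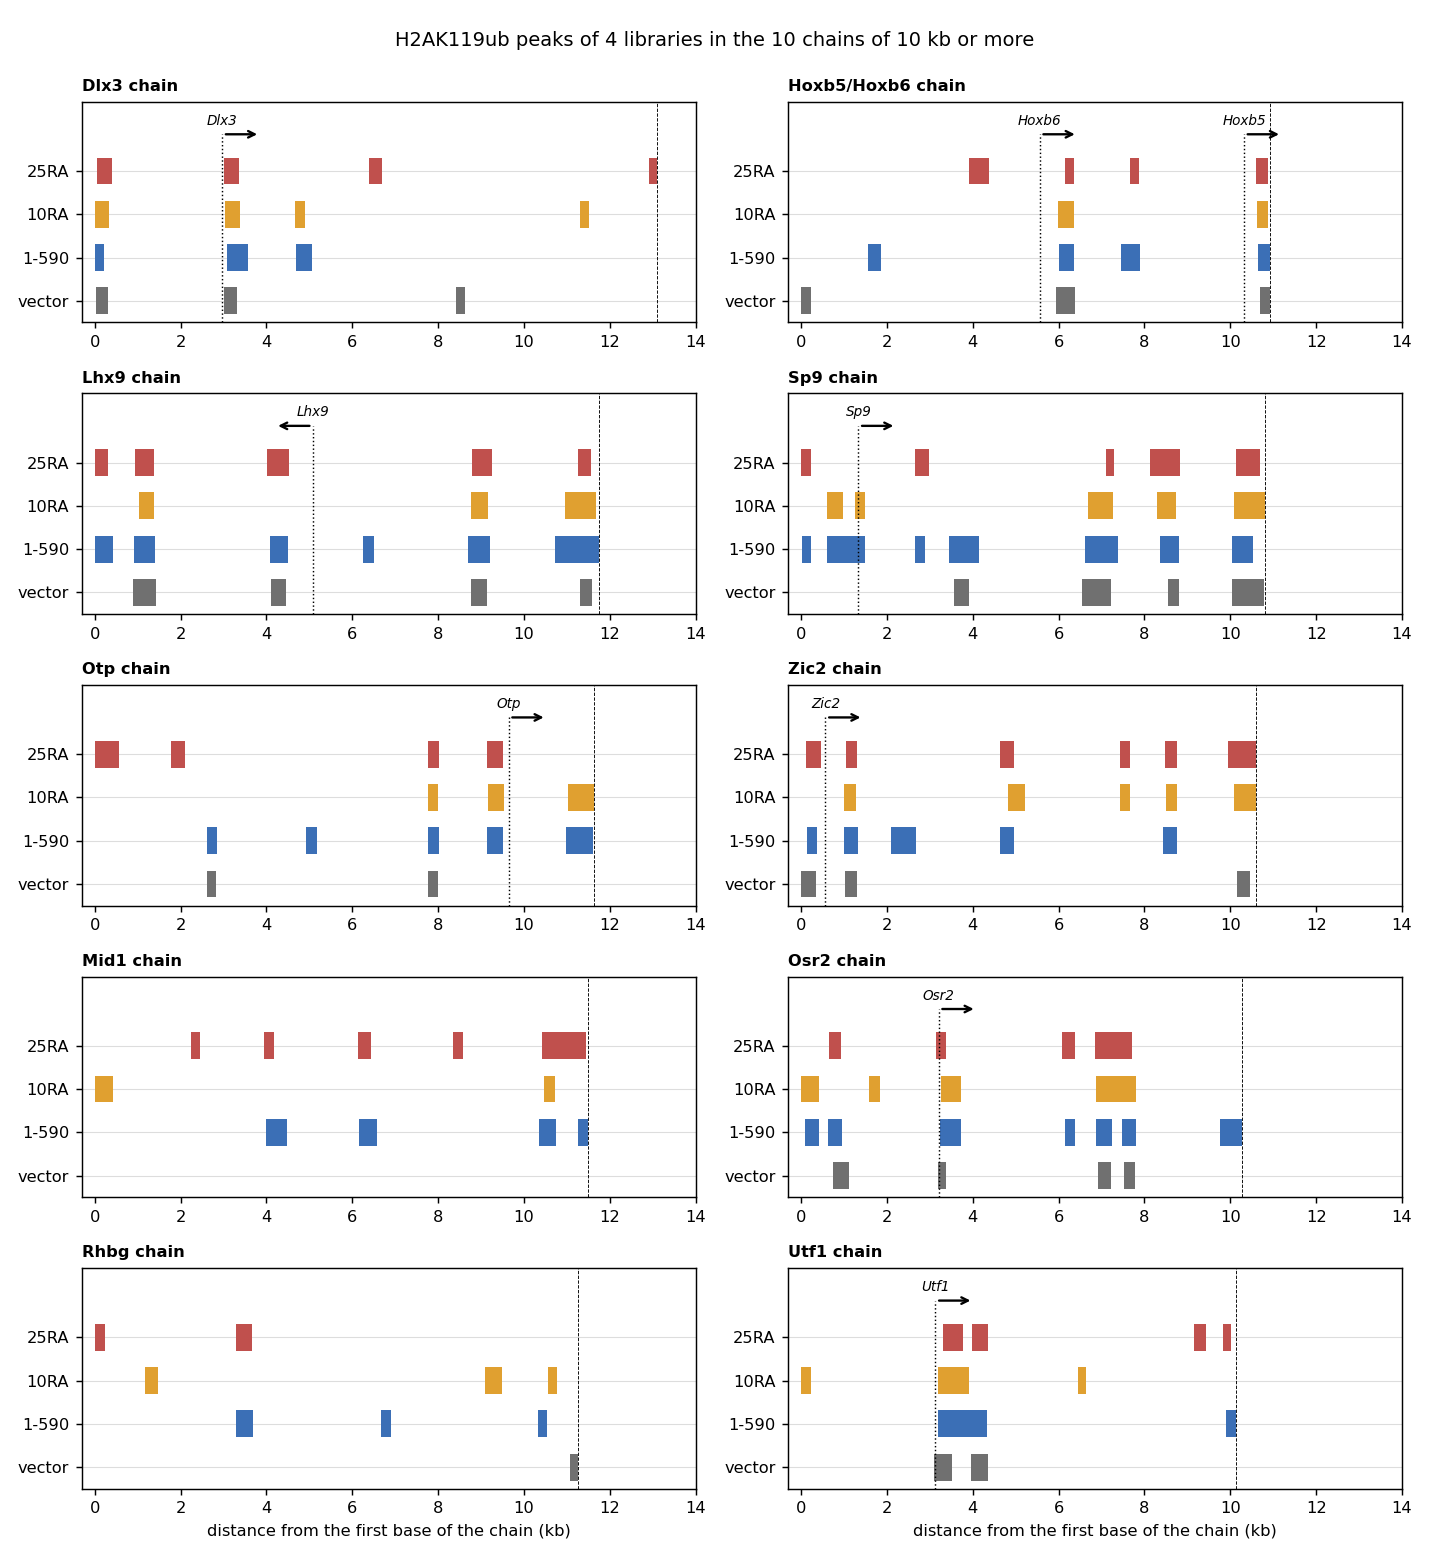
Position of every listed H2AK119ub peak in the 10 chains, in kb from the first base of each chain, with a lane for each of the 25RA, 10RA, 1-590 and vector libraries. Arrows mark the TSS and direction of coding genes and the dashed line marks the end of the chain. The peaks are separate blocks in every library, and only Mid1 has an empty vector lane.

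The listed peaks did not fill the chains. Peak lists hold no signal between peaks, so whether the mark was continuous across the gaps was not tested. The peaks covered between 17.3% of the span at Dlx3 and 41.4% at Sp9, and the longest internal gap in a chain was between 1827 and 2985 bases, where up to 3 kb was allowed. Overlapping peaks merged into 66 sites, of which 15 were listed in all 4 libraries, 8 in 3, 16 in 2 and 27 in 1. The sites found in a single library came from each of them: 9 from 25RA, 8 from 10RA, 7 from 1-590 and 3 from vector. Of the 15 sites shared by all 4 libraries, 6 were centred within 1 kb of a coding TSS and 8 lay more than 2 kb from it. Only the TSS of the canonical transcript was used, and other starts of a gene were not considered. By annotation, 21 of the 66 sites met a coding exon, 6 a UTR only, 15 an intron, 9 an exon and 5 an intron of a non-coding gene, and 10 were intergenic. In the map of peaks, the listed sites sit on gene bodies and flanks as well as on start sites.

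Of the 10 chains, 4 lay over homeobox genes. The Dlx3 chain (chromosome 11, 95007969 to 95021065, mm39) spanned 13097 bases around Dlx3, a distal-less homeobox factor known for its part in epidermal, tooth and bone development. It held 4, 4, 3 and 3 peaks over 1194, 1127, 1068 and 780 bases in 25RA, 10RA, 1-590 and vector. The first 3 sites recurred between libraries, and the last 4, up to 10033 bases past the TSS, were listed in a single library each. Its highest local background was 6.67, 7.85, 7.61 and 7.11 times the genome background in 25RA, 10RA, 1-590 and vector, the narrowest relative spread of any of the chains but Otp.

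Lhx9, a LIM-homeobox factor needed for formation of the gonads, lay in a chain of 11751 bases (chromosome 1, 138765081 to 138776831). The chain held 5, 3, 6 and 4 peaks over 2016, 1478, 3110 and 1547 bases in 25RA, 10RA, 1-590 and vector. Sites centred 3922 bases past the TSS, and at -3889 and -6144 bases relative to it (negative being upstream), were listed in all 4 libraries. The TSS is that of the canonical transcript, and the sites at -3889 and -6144 lie in an intron and a UTR of the annotated Lhx9 gene. The local background reached 8.83, 8.29, 13.4 and 11.2 times the genome background, so the values with either mutant form were lower than those of both 1-590 and vector.

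Otp encodes orthopedia, a homeobox factor known for specifying neuroendocrine neurons of the hypothalamus. Its chain (chromosome 13, 95002468 to 95014092) spanned 11625 bases, most of them upstream of the TSS, and held 4, 3, 5 and 2 peaks over 1485, 1181, 1775 and 446 bases in 25RA, 10RA, 1-590 and vector. A single site was listed in all 4 libraries, at -1754 bases from the TSS, and it is the CpG-dense window printed above. At that site the summit was 26.4, 25.6, 21.9 and 29.8 times the genome background in 25RA, 10RA, 1-590 and vector. The highest local background of 6.99, 7.33, 8.04 and 7.81 differed little between the libraries.

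Hoxb5 and Hoxb6 are neighbours in the HoxB cluster, whose genes pattern the body axis, and Hoxb5 is also known as a marker of long-term hematopoietic stem cells in the mouse. The chain over both (chromosome 11, 96184019 to 96194932) spanned 10914 bases and held 4, 2, 4 and 3 peaks over 1138, 591, 1377 and 890 bases in 25RA, 10RA, 1-590 and vector. The sites near the start of each gene, 601 bases past the Hoxb6 TSS and 434 bases past the Hoxb5 TSS, were listed in all 4 libraries. At the Hoxb6 site the summit held 29, 36, 62 and 33 fragments, or 15.6, 20.9, 30.1 and 36.4 times the genome background, in 25RA, 10RA, 1-590 and vector. The exact Poisson 95% intervals of these multiples were 10.4 to 22.4 in 25RA, 14.7 to 29.0 in 10RA, 23.1 to 38.6 in 1-590 and 25.0 to 51.1 in vector, for counting error only. The 25RA interval lay below both the 1-590 and the vector interval, and the 10RA interval overlapped both. This was the only one of 15 sites listed in all 4 libraries where the intervals of any pair of libraries did not overlap. A summit is the highest point of a peak that passed the caller, in the same lists that chose the chain. The intervals make no allowance for that or for the 15 sites and 6 pairs compared, so the separation is a description and no test. The highest local background was 6.64, 8.42, 11.6 and 10.1.

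A further 3 chains lay over zinc-finger developmental factors. Sp9, an Sp-family factor known for its role in interneurons of the forebrain and in limb outgrowth, lay in a chain of 10809 bases (chromosome 2, 73100932 to 73111740). It was the most densely covered chain, with 5, 5, 7 and 4 peaks over 2045, 2348, 3718 and 2028 bases in 25RA, 10RA, 1-590 and vector. All 7 of its sites were listed in at least 2 libraries, and its 3 sites shared by all 4 libraries lay 5626, 7144 and 9090 bases past the TSS rather than on it. The local background reached 7.79, 8.30, 14.5 and 12.2, with 25RA and 10RA well below 1-590 and vector.

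Zic2, a zinc-finger factor required for forebrain and neural tube formation, lay at the start of a chain of 10590 bases (chromosome 14, 122711256 to 122721845). There were 6, 5, 5 and 3 peaks over 2076, 1658, 1784 and 926 bases in 25RA, 10RA, 1-590 and vector. Of its 7 sites, 4 were listed in 3 libraries and 1 in all 4. The local background reached 8.57, 10.45, 11.4 and 10.4, lowest in 25RA and close to each other in the remaining libraries. Its neighbour and paralogue Zic5 lay in a chain of its own of 7675 bases.

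Osr2, an odd-skipped-related factor needed for growth of the secondary palate, lay in a chain of 10262 bases (chromosome 15, 35292988 to 35303249). It held 4, 4, 7 and 4 peaks over 1632, 2083, 2564 and 1138 bases in 25RA, 10RA, 1-590 and vector. Sites 231 and 4122 bases past the TSS were listed in all 4 libraries. Its local background of 10.1, 11.8, 16.1 and 12.4 times the genome background was the highest of the 10 chains in every library. Among all chains with a peak in the library, it ranked 14 of 29980 in 25RA, 8 of 25444 in 10RA, 5 of 28293 in 1-590 and 11 of 18588 in vector.

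Utf1, a transcription factor known from embryonic stem cells and the germ line, lay in the shortest chain, of 10124 bases (chromosome 7, 139520517 to 139530640), which also meets the end of Kndc1. It held 4, 3, 2 and 2 peaks over 1288, 1162, 1368 and 796 bases in 25RA, 10RA, 1-590 and vector. A site of 1246 bases over the start of the gene was listed in all 4 libraries, and 3 of the other 4 sites were listed in a single library. The local background reached 5.75, 6.76, 7.12 and 6.78.

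The remaining pair of chains held no coding TSS. The Rhbg chain (chromosome 3, 88145005 to 88156269, 11265 bases) lay over the body of this gene, which encodes an ammonium transporter of the Rh family, and of the overlapping model Gm38392. Its peaks numbered 2, 3, 3 and 1 over 594, 892, 847 and 197 bases in 25RA, 10RA, 1-590 and vector. Of its 8 sites, 7 were listed in a single library and none in more than 2, so its span depended on peaks that did not recur. Its local background was nevertheless high, at 8.41, 7.16, 9.74 and 8.05 times the genome background.

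The Mid1 chain (chromosome X, 168759486 to 168770975, 11490 bases) lay in the introns and 3′ coding exons of Mid1, a microtubule-associated ubiquitin ligase whose gene spans the boundary of the pseudoautosomal region in the mouse. It held 5, 2, 4 and 0 peaks over 1998, 657, 1562 and 0 bases in 25RA, 10RA, 1-590 and vector. Its local background of 2.495, 1.21 and 3.41 in 25RA, 10RA and 1-590 was the lowest of the 10 chains in each. Of its 32-base words, 64.9% occurred more than once in the genome, against 0.341 to 3.42% in the other 9 chains. More than 50% of the words were repeated in only 6 of the 418 chains of 5 kb or more. The part of this repetition in the peaks was not tested.

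**Figure D2:**
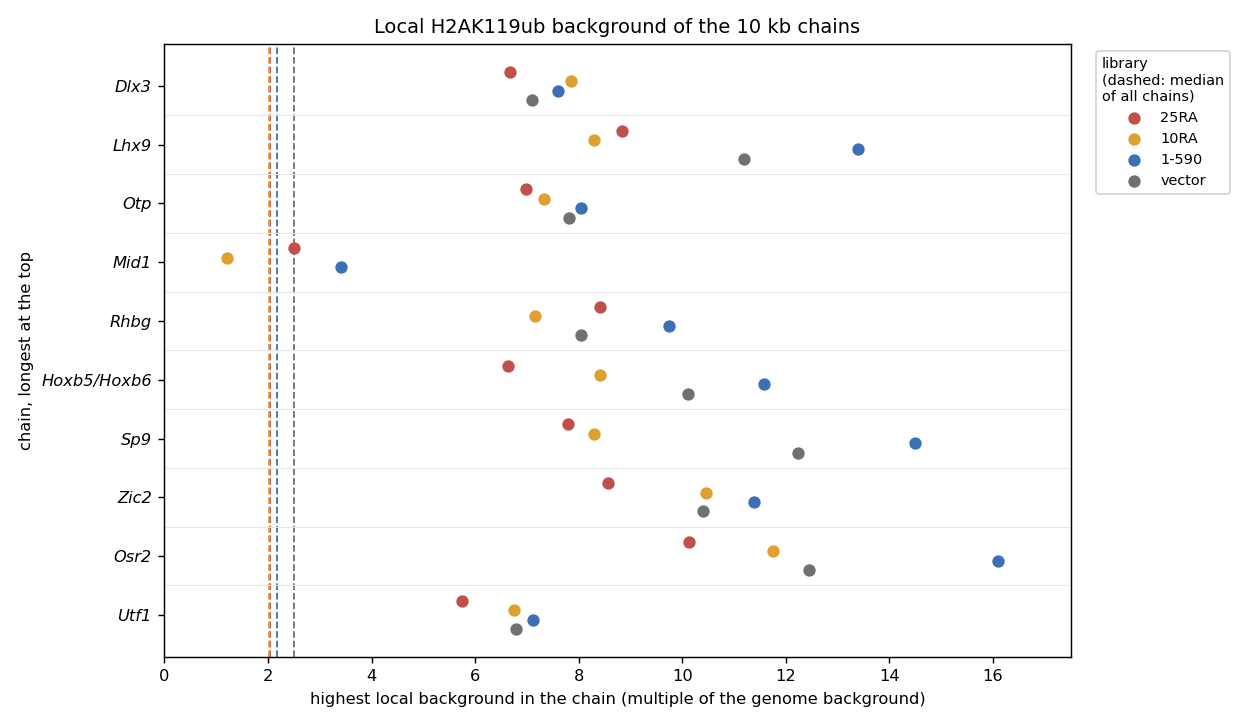
Highest local background in each of the 10 chains, as a multiple of the genome background, in 25RA, 10RA, 1-590 and vector, with the median of all chains with a peak in that library as a dashed line. In 9 chains every library lies between 5.75 and 16.1, and Mid1 lies at 3.41 or less with no vector value.

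The local background was high over these regions in every library. Its median over the chains with a peak was 7.39, 8.07, 10.6 and 10.1 times the genome background in 25RA, 10RA, 1-590 and vector. In the 408 chains of 5 to under 10 kb the medians were 4.10, 4.27, 4.57 and 5.13, and over all chains they were 2.05, 2.01, 2.18 and 2.51. Mid1 alone lay near the level of all chains. High local background was not limited to chains past 10 kb: the 33 chains of 5 to under 10 kb with the TSS of a developmental gene had medians of 7.499, 7.80, 9.002 and 8.66, against 3.89, 3.98, 4.24 and 4.95 in the 375 others of that size.

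Ratios between libraries are a description, since the same 4 lists chose the chains. Without the 1-590 list, 6 of the 10 chains (Lhx9, Rhbg, Hoxb5/Hoxb6, Otp, Zic2 and Osr2) did not reach 10 kb, so they were chosen through the library in which their local background was the highest, and shares over all chains stand beside the counts without being a test. The 25RA library had a lower local background than 1-590 in 10 of 10 chains. It was lower in 9822 of 15200 of all chains with a peak in both, and in 265 of 357 of those of 5 to under 10 kb. The ratio of 25RA to 1-590 ranged from 0.537 at Sp9 to 0.877 at Dlx3 with a median of 0.742, while its median was 0.889 in chains of 5 to under 10 kb and 0.937 over all chains. A local background at least 1.5 times lower was found in 4 of 10 chains (Sp9, Hoxb5/Hoxb6, Osr2 and Lhx9), against 3.19% of the 15200 chains with a peak in both libraries and 11.5% of those of 5 to under 10 kb. The 10RA library was below 1-590 in 9 of 10 chains, with a median ratio of 0.732 and Dlx3, at 1.03, as the exception. Over all chains with a peak in both it was below in 9573 of 13179, and in 250 of 327 of those of 5 to under 10 kb. The 10RA value was at least 1.5 times lower in 3 of 10 (Mid1, Sp9 and Lhx9), against a background of 5.54%. No chain was 1.5 times higher than in 1-590, against 1.01% of chains for 25RA and 0.311% for 10RA. In the 4 chains that reached 10 kb without the 1-590 list (Sp9, Utf1, Dlx3 and Mid1), 25RA was below 1-590 in 4 of 4 with a median ratio of 0.77, and 1 of them, Sp9, was at least 1.5 times lower. For 10RA these counts were 3 of 4 and 2, with a median of 0.761. The 1-590 library was the deepest of the 3, and the part of depth in these ratios was not tested.

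Against the vector, the median ratio in these chains lay above 1 for 1-590 and below 1 for 10RA and 25RA. The local background was higher in 1-590 than in vector in 9 of the 9 chains with a peak in both, with a median ratio of 1.14 and a range of 1.03 to 1.29. In all 11711 chains with a peak in both, the median ratio was 0.893 and 2997 were above 1. Of the 9, 6 were 10 kb long only with the 1-590 list, and 2 (Dlx3 and Hoxb5/Hoxb6) only with the vector list, so the choice favoured 1-590. In the 3 that reached 10 kb without the 1-590 list the median ratio was 1.07. None of the 9 reached a 1.5-fold difference in either direction, where 0.418% of all chains did so upwards and 3.36% downwards. The 10RA library was below vector in 7 of 9 chains (median ratio 0.938) and 25RA in 8 of 9 (median ratio 0.824). Over all chains with a peak in both libraries the medians were 0.787 and 0.828. Of these chains, 8327 of 9717 were below vector in 10RA and 9526 of 11163 in 25RA. The counts of 7 and 8 of 9 are close to that background, so they are no result about these regions. In 25RA, 2 of 9 chains, Sp9 and Hoxb5/Hoxb6, were at least 1.5 times lower than in vector, against a background of 7.58%. None was higher by that factor in 10RA or 25RA, against 0.278 and 0.215%.

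These ratios depend on what is taken as level. Relative to the median ratio of all chains, which lay at -0.16, -0.35 and -0.27 on the log2 scale for 1-590, 10RA and 25RA over vector, the members' median was 1.28 for 1-590, 1.19 for 10RA and 0.995 for 25RA. On this scale 10RA therefore lay above vector, the same way as 1-590, in 7 of 9 chains, 25RA stood level with vector, and 1-590 was above it in 9 of 9. Over 1-590, the medians on this scale were 0.812 for 10RA, with 6 of 10 chains below the all-chain median, and 0.792 for 25RA, with 10 of 10 below it. The 25RA and 10RA libraries differed little from each other, with a median ratio of 0.90 for 25RA over 10RA. Mid1, at 2.06, was the only chain past 1.5-fold in that pair, against a background of 0.997% upwards and 0.376% downwards. All 3 comparisons with vector share the vector library and both comparisons with 1-590 share that library.

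The chains of 5 to under 10 kb with a developmental TSS, which the length rule left out, are given beside them, with the limit that peaks of the same 4 lists built them too. In them 1-590 was above vector in 18 of 26 chains (median ratio 1.08), against 89 of 262 of the chains of that size without a developmental TSS (median 0.927). The 25RA library was below 1-590 in 27 of 33 (median 0.831), against 238 of 324 (median 0.892). For 10RA over 1-590 the median was 0.930 in those with a developmental TSS and 0.870 in those without, so in this pair the values with a developmental TSS were the higher ones, unlike the 0.732 of the 10 kb chains.

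**Figure D3:**
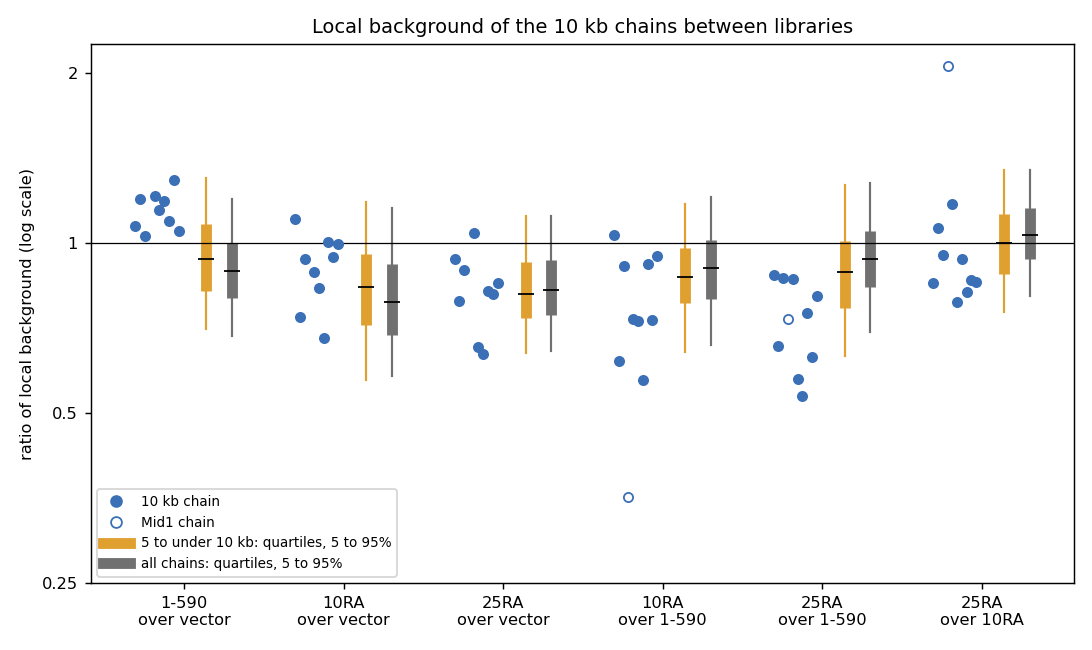
Ratio of the highest local background between libraries (log scale) for each 10 kb chain, beside the quartiles (bars), the 5 to 95% range (lines) and the median (black mark) of chains of 5 to under 10 kb and of all chains. The points for 1-590 over vector lie above 1 and those for 25RA over 1-590 below 1, and the open circle, Mid1, is the lowest point for 10RA over 1-590 and the highest for 25RA over 10RA.

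Peak number and covered bases differed between libraries, as the lengths of the lists did. The 10 chains held 43, 34, 46 and 26 peaks over 15466, 13177, 19173 and 8748 bases in 25RA, 10RA, 1-590 and vector. As a share of all bases that the library's peaks cover, this was 0.133, 0.136, 0.142 and 0.122%. The 1-590 library covered 2.19 times as many of these bases as vector, but only 1.16 times as large a share. With lists of equal length the ratio was 1.68, and with depth matched it was 1.61. Depth matching left 31.65 of the 46 peaks of 1-590 on average. Intervals cannot be called again from peak lists, so the width of the kept peaks was not matched. At least 2 times as many bases were covered in 1-590 as in vector in 5 of 10 chains (Rhbg, Otp, Osr2, Lhx9 and Mid1), against 54.7% of all chains. The corresponding counts over vector were 3 of 10 for 10RA and 4 of 10 for 25RA, against 49.0% and 54.2%. The counts are close to or below the background, so they are no result about these regions.

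Between the ASXL1 forms, 10RA covered less than 1-590 by 2 times or more in 3 of 10 chains (Mid1, Hoxb5/Hoxb6 and Lhx9), against a background of 43.6%. For 25RA below 1-590 the count was 0 of 10, against 36.2%. Only Mid1 was covered 2 times more in 25RA than in 10RA, against 43.2%. In the opposite direction no chain was called in any of the 6 pairs. The backgrounds were 20.2% for 1-590 below vector, 28.0% for 10RA below vector and 21.5% for 25RA below vector. They were 31.3% for 10RA above 1-590, 35.9% for 25RA above 1-590 and 31.4% for 25RA below 10RA. In chains of 5 to under 10 kb the share below 1-590 was 39.2% for 10RA and 28.5% for 25RA. A chain with no peak in the lower library counted as called, and 55.5% of all chains were a single peak. Low counts in these chains of several peaks are therefore no result about these regions.

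Summit heights could be compared at the 15 sites listed in all 4 libraries. In multiples of the genome background they were lower in 25RA than in vector at 15 of 15 sites (median ratio 0.610) and lower in 10RA than in vector at 15 of 15 (0.801). The 1-590 library was below vector at 11 of 15 (0.803), a direction opposite to that of its local background. Compared with 1-590, the summits were lower at 13 of 15 sites in 25RA (0.760) and at 11 of 15 in 10RA (0.843). The 15 sites had to be listed in the shallow vector library to be compared, so their choice is not independent of the vector summit. Summits held between 20 and 71 fragments at these sites, so single ratios carry a wide counting error. The same counts over all sites listed in all 4 libraries were not made, so these counts are no result about these regions.

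**Figure D4:**
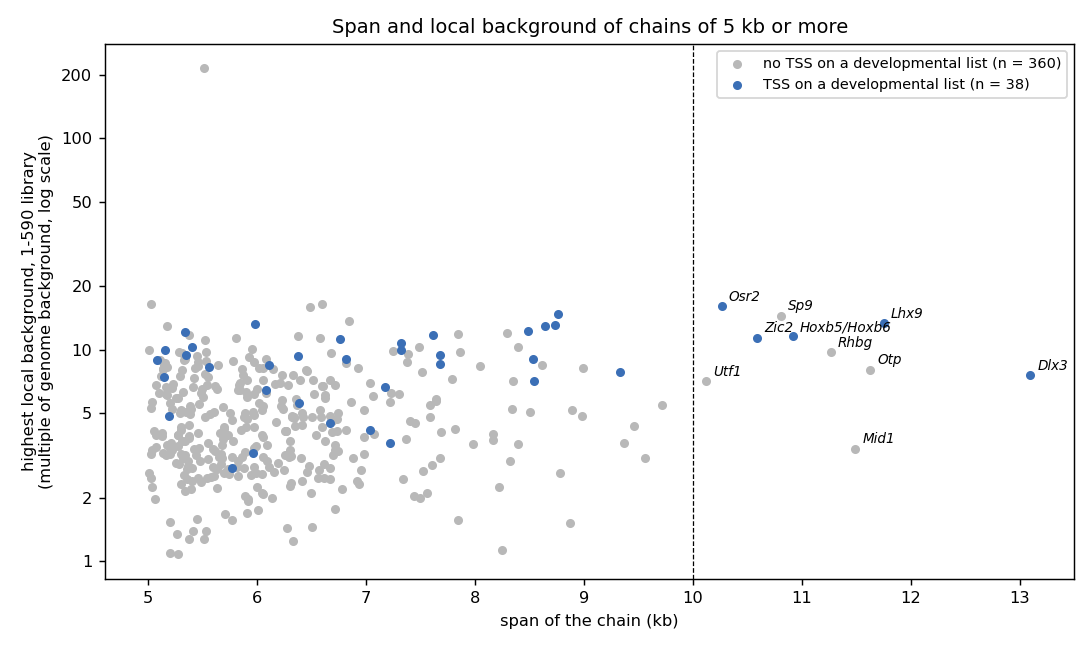
Span of each chain of 5 kb or more with a peak in the 1-590 library (kb) and its highest local background in that library (multiple of the genome background, log scale), with chains holding the TSS of a gene on a developmental list in blue. Past the dashed line at 10 kb, Mid1 lies at 3.41 and the other 9 chains at 7.12 or above.

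The genes inside were mostly transcription factors of embryonic development. The 10 chains held 9 coding TSS, in 8 chains, and 6 of the 9 (66.7%, Wilson 95% interval 35.4 to 87.9 for counting error only) were on 1 of 5 lists of developmental genes. The background was 1.53% of the 9795 coding TSS in any chain, and the share was 13.5% (33 of 244) in chains of 5 to under 10 kb. The 6 were Hoxb5 and Hoxb6 of 39 Hox genes, Lhx9 and Dlx3 of 116 other homeobox genes, and Zic2 and Osr2 of 71 bHLH and zinc-finger genes. Otp and Sp9, a homeobox and a zinc-finger factor, were on none of the lists, and Utf1 was the ninth. Hoxb5 and Hoxb6 lie in the same chain, so the 9 TSS are not independent. Counted by chain, 5 of 10 held a TSS on these lists, against 8.09% of chains of 5 to under 10 kb and 0.262% of all chains. Of the lists, 18 of 21 had no TSS in these chains, among them the HSPC and leukaemia regulators, the lineage genes of blood, the cell cycle inhibitors and the subunits of Polycomb and of the BAP1 complex. With only 9 of the 9795 coding TSS in these chains, an empty list is no result about its genes. In chains of 5 to under 10 kb there were 3 further Hox genes (Hoxa2, Hoxa9 and Hoxa11) and 16 homeobox genes, among them Dlx1, Lhx2, Otx2 and Pax2.

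Cdkn2a, the cell cycle inhibitor that Polycomb is best known for silencing, lay in a chain of only 529 bases, with 1 peak each in 25RA, 10RA and 1-590 and none in vector. Bap1 and Asxl1 lay in chains of 475 and 634 bases. Hoxa9, a regulator of hematopoietic progenitors, lay in a chain of 5977 bases with 1, 3, 4 and 0 peaks in 25RA, 10RA, 1-590 and vector, where a peak count of 0 does not show absence of the mark at that depth. Of the other HoxB genes checked, Hoxb4, Hoxb7 and Hoxb8 had a TSS in no chain.

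The regions were rich in CpG. Their median was 29.7 CpG per kb, against 23.8 in chains of 5 to under 10 kb and 15.7 over all chains. The ratio of observed to expected CpG was 0.496, 0.355 and 0.243 in the same 3 classes. Each of the 10 chains held at least 1 CpG island, against 86.5% of chains of 5 to under 10 kb and 32.2% of all chains. An island was defined as a run of 200-base windows with 50% GC and a ratio of 0.6. The median number of islands was 8, against 2 and 0 in the same classes. Sp9 was the most CpG-rich, with 50.5 CpG per kb and islands over 66.5% of its span, followed by Zic2 with 45.5 per kb and islands over 54.7%. The Rhbg chain stood lowest with 19.3 CpG per kb and islands over 11.9%. Longer chains have more room for an island, so the counts are not independent of span.

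**Figure D5:**
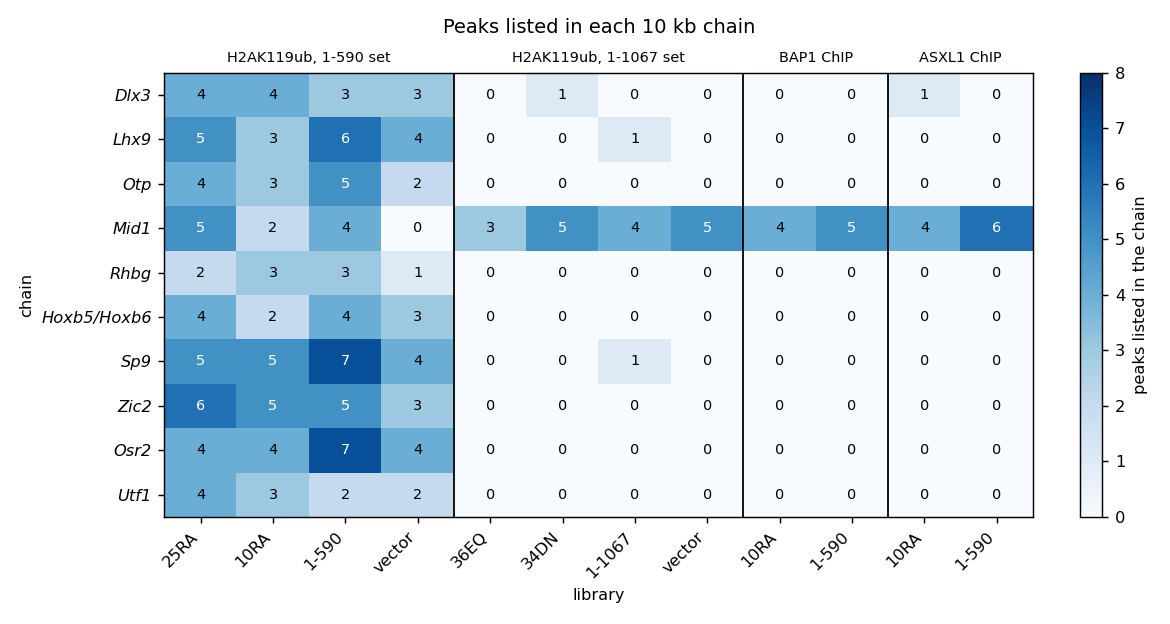
Number of peaks listed in each of the 10 chains in 12 libraries: the 25RA, 10RA, 1-590 and vector libraries that chose the chains, the 36EQ, 34DN, 1-1067 and vector libraries of the second H2AK119ub set, and the ChIP libraries of BAP1 and ASXL1 with 10RA or 1-590. Outside the choosing set, only Mid1 has peaks in every library, and 6 chains have none.

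The 8 libraries that took no part in the choice gave few peaks in these regions. Any peak of the second H2AK119ub set was listed in 4 of 10 chains (Wilson 95% interval 16.8 to 68.7%), against 34.6% of chains of 5 to under 10 kb and a background of 10.5% of all chains. These shares make no allowance for span: per Mb of chain the set had 179 peaks in the 10 chains, 93.7 in chains of 5 to under 10 kb and 194 in all chains. Of the 20 peaks in the 10 chains 17 lay in Mid1, and the other 9 chains held 3, or 29.9 per Mb. These rates count the 4 lists together. Per Mb of genome the single lists held 2.23, 1.95, 2.32 and 2.11 peaks in 36EQ, 34DN, 1-1067 and the second vector library. Lhx9 and Sp9 had 1 peak each with 1-1067, both with a q-value under 0.05, and Dlx3 had 1 with 34DN that did not pass it. The lists of this set were short, with 5307 to 6310 peaks of which 22.8 to 32.7% had a q-value of 0.05 or less. An empty chain in them therefore does not show that the mark was missing.

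Mid1 was the fourth of these chains, with 3, 5, 4 and 5 peaks in 36EQ, 34DN, 1-1067 and the second vector library, where 4.01, 3.0, 4.33 and 3.72% of all chains have a peak. It also held peaks in every ChIP library: 4 with 10RA and 5 with 1-590 for BAP1, and 4 with 10RA and 6 with 1-590 for ASXL1. The shares of all chains with a peak in these libraries were 0.363 and 0.0915% for BAP1 and 0.209 and 0.642% for ASXL1. Peaks in all 4 ChIP libraries occurred in 0.0598% of all chains, and peaks in all 8 of the libraries not used for the choice in 0.0458%. The only other ChIP peak in the 10 chains was 1 of ASXL1 with 10RA at the far end of the Dlx3 chain, with a q-value above 0.05. Thus 2 of 10 chains had a ChIP peak, against 4.66% of chains of 5 to under 10 kb and a background of 1.05%, and for the 8 chains over developmental genes and Utf1 the count was 1. These shares too make no allowance for span, and 19 of the 20 ChIP peaks lay in Mid1. Peaks in Mid1 were thus listed in H2AK119ub and in ChIP libraries alike, beside the 64.9% of repeated words given above.

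The length threshold cut through a continuous range. Just inside it were Utf1 (10124 bases), Osr2 (10262) and Zic2 (10590). Just outside it were a chain over the start sites of Mogs and Wbp1 (9719 bases), the Taf8 chain (9564), the Ebf1 chain (9458), the Igfbp5 chain (9367) and the Nkx2-2 chain (9333). The highest local background at Nkx2-2, a homeobox gene, was 7.34, 7.28, 7.82 and 8.70 in 25RA, 10RA, 1-590 and vector, within the range of the members. At Taf8, which encodes a subunit of the general transcription factor TFIID, it was 2.73, 1.501, 3.06 and 3.59. At Ebf1, the early B-cell factor, it was 5.53, 5.04, 4.38 and 5.13. At Igfbp5 it was 4.08, 3.46, 3.64 and 4.27. At Mogs and Wbp1 it was 5.46, 5.44 and 5.47 in 25RA, 10RA and 1-590, without a vector peak. Utf1, the lowest of the chains just inside, had 5.75, 6.76, 7.12 and 6.78. Of the chains just outside, only Nkx2-2 lay above Utf1, and the others lay below it in every library with a peak.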

How the data were processed

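The deposited files are narrowPeak lists, 1 per library, with 1 library per condition. Tools listed per the submitters' processing notes are MACS3 3.0.3, Bowtie2 2.5.4, fastp 0.24.0, Picard and SAMtools, with build mm39. Whether a control library was used in peak calling is not given in the sources used here. Per the labels, spike-in reads of E. coli served to normalize the CUT&RUN libraries; the recovered pileups are whole fragments, so the values here were not multiplied by such a factor. In each list the authors deposited the fold enrichment of the summit (a ratio to local background), its −log10 p-value and −log10 q-value, and an integer score, which was not used. The lists stop at a p-value of 0.001. Sample descriptions of the ChIP libraries name antibodies against BAP1 or ASXL1 while the protocol names an HA antibody, and this conflict was not settled. Names inside some lists, that of 25RA and those of the 1-1067 set among them, differ from the titles, and the titles were followed.

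Whole fragments and local background were solved from fold, as (fragments + 1)/(local background + 1), and the Poisson p-value. Every peak gave a whole number whose −log10 p lay within 0.002 of the deposited value, and the step was checked on simulated peaks. Intervals were joined in Python 3.11.15 with numpy 2.4.6 and pandas 2.3.3, and the joining was checked against bedtools 2.31.1. Gene models were GENCODE on GRCm39, the same assembly as mm39, with 21738 coding symbols. A gene was placed by the TSS of its Ensembl canonical transcript. Called differences were 2-fold in covered bases and 1.5-fold in local background; no significance test was made. The members and the 21 gene lists were chosen with earlier results of these data known. The rule for named genes was the longest chains with every coding TSS inside, the chains nearest the threshold, list members, and Bap1, Asxl1 and Cdkn2a. Only those that bear on the 10 chains are printed. Counting intervals cover counting error only. The sequence of 1 further site is not reported here.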

Additional observations from a re-analysis of the deposited data

How the results depend on the processing

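The number of 10 kb chains, 10, depended on every choice in the rule. It was 0 with a gap of 1 kb, where the longest chain was 5516 bases, 1 with a gap of 2 kb (Mid1 alone), and 446 with a gap of 5 kb, which took in all 10. A span of 5 kb gave 418 chains, and spans of 15 and 20 kb gave 0. It was 8 with q of 0.05 or less, without Rhbg and Hoxb5/Hoxb6. With −log10 p of 5 or more it was 5, with lists of equal length 4, and with depth matched 4.55 on average over 20 draws. Leaving out the 25RA, 10RA, 1-590 or vector library gave 5, 6, 4 and 8 chains. All of these lay in members. Sp9 was the only member in each of these 4 sets. Taken alone, 1-590 gave 3 chains (Lhx9, Sp9 and Osr2) and each of the other libraries 0.

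The 1-590 to vector ratio of covered bases fell to 1.16 as a share of what each library covers, and the other settings gave 1.61 to 2.38. The local background ratios over vector were 1.28 for 1-590, 1.19 for 10RA and 0.995 for 25RA when scaled to the median of all chains, a setting chosen after seeing the data. Without Mid1, also chosen then, 10RA over 1-590 was 0.735 and 25RA over 1-590 was 0.752. The share of TSS on developmental lists was 13.5% in chains of 5 to under 10 kb, 13.8% with a gap of 5 kb and 33.3% (1 of 3) without the 1-590 library, and 46.2 to 75% in the other settings. With a gap of 1 kb or a span of 15 kb no covered bases, genes or CpG values can be given, because no chain is left. The cause of these shifts was not tested beyond the construction of each setting. The vector library, at 0.908 fragments per base, limits every comparison with it. No paired analysis was possible because each condition has 1 library.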

Other observations

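Joining peaks across gaps of 5 kb instead of 3 kb gave 446 chains of 10 kb or more, and 22 of 20 kb or more, some of them over several neighbouring developmental genes. Of the 22, 9 held a developmental TSS and 13 did not, 5 of these with no coding TSS at all, and 172 of the 446 held no coding TSS. The loci named next were chosen after their values were seen. The longest, 36823 bases, ran over Evx2, Hoxd13, Hoxd12, Hoxd11 and Hoxd10 with 12, 12, 14 and 7 peaks in 25RA, 10RA, 1-590 and vector. The Hoxb5/Hoxb6 chain became part of a chain of 24559 bases over Hoxb8, Hoxb7, Hoxb6 and Hoxb5, and Zic2 joined Zic5 in a chain of 22579 bases. Hoxa9, Hoxa10 and Hoxa11 lay in a chain of 26625 bases with 5, 5, 7 and 0 peaks, and Dlx1 and Dlx2 in 1 of 26218 bases with 4, 9, 7 and 4. Cbx8, a Polycomb subunit gene, lay in a chain of 26019 bases with 4, 5, 8 and 6 peaks. Start sites of 13 of 39 Hox genes were inside.

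Of these 446 chains, 40 held a developmental TSS. Their median highest local background was 7.44, 8.42, 9.96 and 8.77 times the genome background in 25RA, 10RA, 1-590 and vector, against 3.52, 3.48, 3.81 and 4.42 in those without a developmental TSS. A peak was missing from 18, 30, 19 and 79 of the 446 in 25RA, 10RA, 1-590 and vector.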
